A study of Mus musculus with 4 samples.

Results

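The islands described here lie in the mouse major histocompatibility complex (MHC) on chromosome 17. They were chosen by position alone, as all non-control probes between 34000000 and 37400000 on the mm9 build. The array carried 524 such probes, and 497 of them had an input signal well above background on all 4 arrays, so 27 were left out. Runs of these probes with gaps of up to 1000 bp gave 88 regions, of 14525 on the whole array. Of the 88 regions, 74 held at least 3 probes and entered the region counts, while 14 held 1 or 2. A region held a median of 5 probes (1 to 30) and had a median length of 645.5 bp (45 to 4269 bp).

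DNA methylation was measured in whole brains of 1-day-old C57BL/6J mice. In the TiO2-H groups the dams had received titanium dioxide nanoparticles, 100 ug per mouse, and in the Sham groups a vehicle from which the particles had been removed. Both were given into the trachea in a volume of 25 uL during pregnancy, on gestational day 14 by the sample names and on day 10.5 by the treatment protocol. Each group, Sham or TiO2-H of either labelled sex, was 1 pooled DNA sample on 1 array. A Sham pool joined 2 offspring from each of 5 dams and a TiO2-H pool 2 offspring from each of 6 dams. With 1 array per group no level or fold below has a replicate error, and the number of arrays limits the precision. A level is an average over all cells of a pool, so a different mix of cells and a different methylation within cells cannot be told apart. The array measures DNA, so the labelled tissue could not be set against marker genes.

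The MHC holds the genes of class I and class II molecules, which present peptides to T cells, with genes for peptide loading, complement, cytokines and heat shock proteins between them. Many genes with no immune role also lie there, among them regulators of chromatin and a receptor subunit for the transmitter GABA. In the brain, class I genes are known for roles in synapse development as well as in immunity. CpG islands are stretches rich in the dinucleotide CpG that often mark promoters, and most of them are unmethylated in normal tissue. In methylated DNA immunoprecipitation (MeDIP) an antibody against 5-methylcytosine captures methylated fragments, here labelled with Cy5, and the untreated input DNA carries Cy3. The level used below is the log2 of Cy5 over Cy3 minus its median over the autosomal probes of the array. It is a relative measure that also depends on how many CpG a fragment holds.

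The MeDIP signal in the interval was dim and differed between the arrays. Cy5 was well above background at 52.1% of MHC probes in Sham male and 63.0% in Sham female. On the TiO2-H arrays labelled male and female it was so at 24.6% and 33.8%. The shares over all autosomal probes were 51.2%, 58.8%, 24.6% and 32.9% in the same order. Slide 1 held both arrays labelled male and slide 2 both arrays labelled female, so slide and labelled sex cannot be told apart. Both Sham arrays were at position 1 of a slide and both TiO2-H arrays at position 2, so exposure and position cannot be told apart either. The median input of 2471 X-linked probes minus that of autosomal probes (log2) was -0.75 in Sham male and 0.03 in Sham female. It was 0.03 on the TiO2-H array labelled male and -0.74 on the TiO2-H array labelled female, so both TiO2-H arrays went against their sex labels. The labels were kept, and counts with the TiO2-H sex labels crossed stand beside the results that rest on them.

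Promoter sequences of 5 genes show how the CpG content of the interval varies. They are RefSeq windows of the build GRCm38.p6, 250 bases before to 50 bases after a transcription start, with CG in capitals, and they are not the probes. Where a gene has several windows, the one with the most CG is shown. Rgl2 held the only probe called in the test over all arrays, Csnk2b fell in both comparisons, Brd2 is the largest region, Gnl1 has the most CG among the genes with a symbol here, and Gm8909 is a class I-like gene. They lie at chr17:33929644-33929943 (plus strand, Rgl2), chr17:35121243-35121542 (minus, Csnk2b), chr17:34122558-34122857 (minus, Brd2), chr17:35979705-35980004 (plus, Gnl1) and chr17:36168488-36168787 (minus, Gm8909).
Rgl2: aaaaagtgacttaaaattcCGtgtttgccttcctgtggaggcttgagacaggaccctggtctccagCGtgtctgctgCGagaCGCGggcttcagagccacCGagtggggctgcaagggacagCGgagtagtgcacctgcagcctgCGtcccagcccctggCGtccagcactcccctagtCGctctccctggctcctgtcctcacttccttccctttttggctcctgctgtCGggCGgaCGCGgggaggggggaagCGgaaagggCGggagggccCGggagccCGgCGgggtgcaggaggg
Csnk2b: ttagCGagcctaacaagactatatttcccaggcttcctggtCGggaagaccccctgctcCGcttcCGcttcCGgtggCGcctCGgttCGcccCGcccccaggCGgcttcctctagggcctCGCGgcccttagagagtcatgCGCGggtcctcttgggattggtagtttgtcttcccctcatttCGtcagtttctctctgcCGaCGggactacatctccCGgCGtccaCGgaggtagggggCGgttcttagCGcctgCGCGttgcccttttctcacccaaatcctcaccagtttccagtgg
Brd2: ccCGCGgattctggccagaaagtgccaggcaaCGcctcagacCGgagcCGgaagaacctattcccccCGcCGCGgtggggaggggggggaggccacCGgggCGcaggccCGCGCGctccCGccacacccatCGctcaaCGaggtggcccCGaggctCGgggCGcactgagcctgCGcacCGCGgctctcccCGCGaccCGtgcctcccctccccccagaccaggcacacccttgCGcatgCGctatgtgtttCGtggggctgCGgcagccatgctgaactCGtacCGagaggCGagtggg
Gnl1: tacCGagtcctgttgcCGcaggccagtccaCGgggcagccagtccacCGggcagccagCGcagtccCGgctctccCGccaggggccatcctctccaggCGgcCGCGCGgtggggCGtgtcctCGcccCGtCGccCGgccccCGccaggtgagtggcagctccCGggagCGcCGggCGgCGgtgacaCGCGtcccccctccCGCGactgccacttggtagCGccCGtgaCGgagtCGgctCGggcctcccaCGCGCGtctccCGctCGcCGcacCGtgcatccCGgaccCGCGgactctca
Gm8909: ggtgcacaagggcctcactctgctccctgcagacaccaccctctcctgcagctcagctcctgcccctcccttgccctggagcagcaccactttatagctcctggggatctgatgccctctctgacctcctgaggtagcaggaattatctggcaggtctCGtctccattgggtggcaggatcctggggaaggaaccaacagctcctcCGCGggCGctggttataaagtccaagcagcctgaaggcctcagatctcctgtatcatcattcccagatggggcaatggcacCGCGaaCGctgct

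The windows held 19 CG for Rgl2, 24 for Csnk2b, 32 for Brd2, 41 for Gnl1 and 7 for Gm8909, counted on 1 strand, since CG reads the same on both. Of all 32851 RefSeq windows of this length, 94.6% held at least 1 CG and the median was 7. The share of windows with fewer CG was 71.9% for Rgl2, 80.0% for Csnk2b, 90.5% for Brd2, 96.5% for Gnl1 and 47.9% for Gm8909. RefSeq lists 168 genes with 215 windows from Daxx to Olfr94, the genes at the outer regions with a symbol. The median over these windows was 11. The medians of the gene lists are also over windows, so a gene with several windows counts more than once. The median was 3 for 8 class II genes, 5 for 19 class I and related genes and 8.5 for 4 complement and cytokine genes. It was 13 for 4 antigen processing genes, 14 for 13 genes with roles in the nervous system, 15 for 3 heat shock genes and 24 for 19 genes of chromatin and transcription. The class II and class I lists thus had the lowest medians, though single genes ranged from 0 (H2-Eb1) to 29 in class II and up to 19 (H2-D1 and H2-Q10) in class I.

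Coverage along the interval followed no even spacing. The median distance between neighbouring regions was 18.2 kb, and the largest, 565 kb, ran from 36408924 to the Trim26 region at 36973820. RefSeq places a cluster of H2-M class I genes between Gm8909 and Trim26 in its gene order. Gene symbols could be given to 23 of the 88 regions, from the part of the study's probe list that was used here. That part is ordered by the male ratio of TiO2-H over Sham and ends at a ratio of 0.941, so regions with a symbol were chosen in part by that ratio and no comparison is drawn between them and the rest. A region without a symbol is named by the position of its first base.

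Whether the islands of the MHC differ in methylation from those of the rest of chromosome 17 was asked first. In Sham male the median level of the MHC regions was -0.17 against -0.08 for 544 other regions of the chromosome. In Sham female it was -0.018 against -0.025. On the TiO2-H array labelled male it was -0.27 against -0.11, and on the TiO2-H array labelled female -0.06 against -0.10. The MHC regions were thus lower on both arrays labelled male and higher on both labelled female, in Sham female by only 0.007. With the TiO2-H sex labels crossed this split by sex was gone, and each sex had a lower and a higher array. The mean difference was -0.05 ± 0.09 (log2, SD, n = 4 arrays), which is within the spread between arrays (exact sign-flip permutation test, two-sided, p = 0.5, where 0.125 is the smallest p that 4 arrays allow). The difference changed by -0.02 from Sham to TiO2-H (exact permutation test of 2 against 2 arrays, two-sided, p = 1.0, smallest possible 0.333). Those were the 2 tests of the interval over arrays, and neither could reach 0.05.

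**Figure D1:**
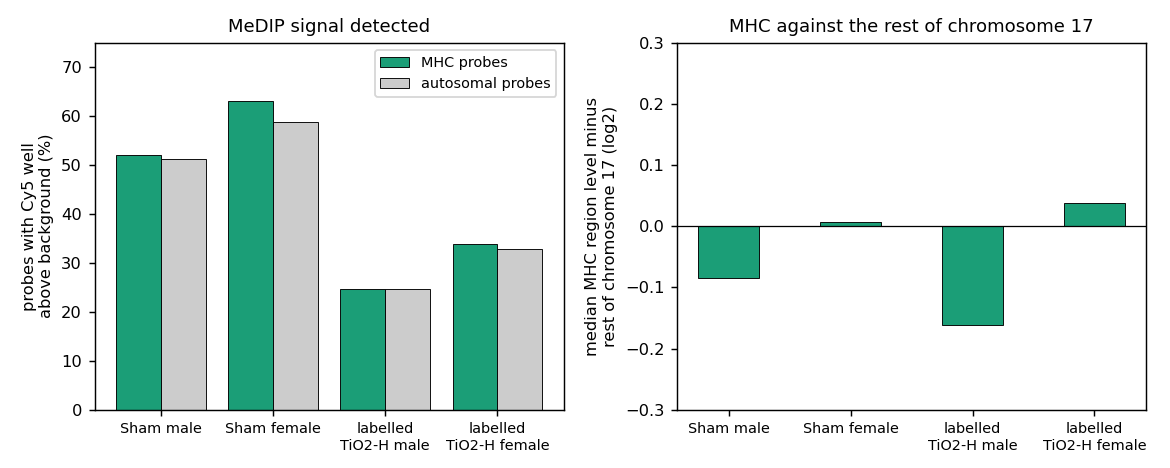
Left: share of probes (%) with Cy5 well above background on each of the 4 arrays, for MHC probes and all autosomal probes. Right: median level of the MHC regions minus that of the other regions of chromosome 17 (log2) on each array; the bars run from -0.16 on the TiO2-H array labelled male to 0.04 on the TiO2-H array labelled female, and each is a single array with no error.

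The regions themselves spread far more widely than the interval differed from its surroundings. Between the lower and upper quartile the 74 region levels ran from -0.68 to 0.31 in Sham male and from -0.29 to 0.37 in Sham female. They ran from -0.65 to 0.31 on the TiO2-H array labelled male and from -0.74 to 0.31 on the TiO2-H array labelled female. Across the 74 regions the levels of any pair of arrays correlated with r from 0.57 to 0.89. These values describe regions that share array, probes and base composition, and carry no test.

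The highest mean level belonged to the Prrc2a region (35293254 to 35293603, 4 probes), inside the gene of an RNA-binding protein. Its level was 2.73 in Sham male, 1.53 in Sham female, 1.74 on the TiO2-H array labelled male and 1.54 on the TiO2-H array labelled female. All 4 values lay above at least 93.7% of autosomal regions of the same array. The Daxx region (34048470 to 34049017, 6 probes) lies inside the gene of a chaperone for histone H3.3 and had levels of 1.17, 1.31, 1.62 and 1.84 in the same order. The Hspa1l region (35114412 to 35115587, 5 probes), inside a gene of the HSP70 family, had 1.07, 1.48, 1.55 and 1.45. The other 3 of the 6 highest had no symbol. Region 34817001 had levels of 1.49, 1.12, 1.06 and 1.55, region 34742454 had 1.46, 1.01, 0.71 and 1.95, and region 36033850 had 1.69, 0.96, 1.29 and 1.18. All 6 stood above 0 on all 4 arrays, and those with a symbol were annotated inside the gene. Their Cy5 was not well above background at every probe. On the TiO2-H array labelled male it was so at 2 of 4 Prrc2a, 3 of 6 Daxx and 3 of 5 Hspa1l probes. On the TiO2-H array labelled female it was so at 1 of 3 probes of region 36033850 and at 5 of 5 of region 34817001.

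None of the 6 regions with the lowest mean level had a symbol, and their Cy5 was mostly not well above background outside Sham female. Region 35301346 (5 probes) had levels of -2.00 in Sham male, -0.10 in Sham female, -1.74 on the TiO2-H array labelled male and -1.94 on the TiO2-H array labelled female. Its Cy5 was well above background at 3 probes in Sham female and at none on the other 3 arrays. Region 37095397 (3 probes) had -1.56, -1.37, -0.49 and -1.01 with no probe above background on any array, the only such region of the 74. Region 35332472 had -1.42, 0.02, -1.32 and -1.68 in the same order. Region 35088871 had -1.17, -0.22, -1.52 and -1.29, and region 35271987 had -1.34, -0.20, -1.63 and -0.82. Region 35378251 had -1.21, -0.59, -0.69 and -1.25. In 5 of the 6 the Sham female array gave the highest value, and that array also had the narrowest spread of levels over all autosomal probes (median absolute deviation 0.60, against 0.91 to 1.08 on the others).

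**Figure D2:**
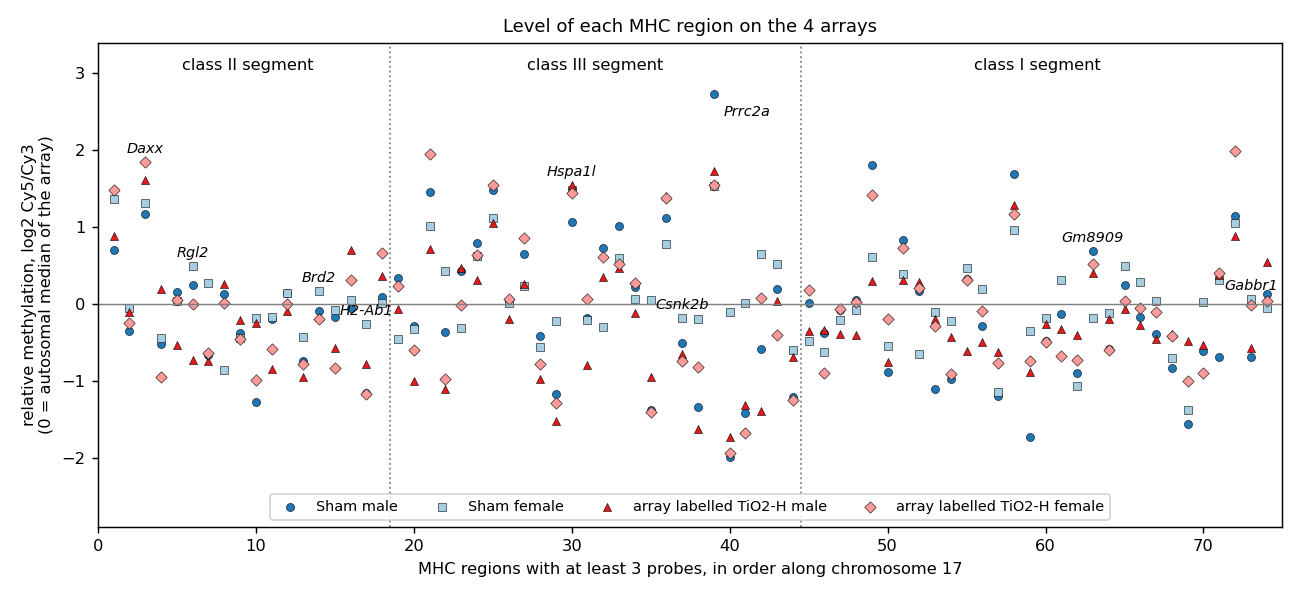
Level (log2 Cy5 over Cy3, 0 is the autosomal median of the array) of the 74 MHC regions with at least 3 probes, in order along the chromosome, with 1 point per array; dotted lines separate the class II, class III and class I segments. Prrc2a, Daxx and Hspa1l stand above 1 on all 4 arrays, and regions above and below 0 lie side by side in every segment. The lowest regions named in the text lie in the class III and class I segments only.

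The distance from the lowest to the highest probe of a region had a median of 4.09 in Sham male, 2.04 in Sham female, 3.20 on the TiO2-H array labelled male and 3.59 on the TiO2-H array labelled female (log2). The largest distance in Sham male, 10.8, was in the region of Brd2 (34255264 to 34259532, 30 probes), the gene of a BET family protein that binds acetylated histones. Its last probe (34259488 to 34259532) read 7.11 in Sham male, 3.47 in Sham female, 2.74 on the TiO2-H array labelled male and 5.16 on the TiO2-H array labelled female. The probe at 34259233 read 5.86, 3.71, 3.61 and 5.29, and the probe at 34257414 near the middle read 3.27, 2.60, 2.83 and 4.02. Each of these 3 probes stood above 2 on all 4 arrays. The level of the whole region stayed near the autosomal median on all arrays, at -0.10, 0.17, -0.17 and -0.20.

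The interval was split by position into a class II segment (18 regions, 34027445 to 34447005), a class III segment (26 regions, 34723921 to 35379526) and a class I segment (30 regions, 35457566 to 37334616). Median levels in Sham male were -0.13, 0.11 and -0.34 in that order, and in Sham female -0.02, 0.03 and -0.09. On the TiO2-H array labelled male they were -0.19, -0.16 and -0.35, and on the TiO2-H array labelled female -0.23, 0.06 and -0.08. The class III segment had the highest median on each array. The 6 regions with a promoter annotation had medians of -0.24, -0.001, -0.39 and -0.35 on the 4 arrays.

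What changed with TiO2-H was read within each labelled sex, as a fold of the TiO2-H array over the Sham array of that sex. Following the study's thresholds a feature rose at 1.5-fold or more and fell at 0.67-fold or less. A probe was counted where at least 1 array of the pair had Cy5 well above background and the scanner's p-value of the log ratio was under 0.05 on at least 1. A region needed 3 such probes. Of the 74 regions, 50 were measured in at least 1 comparison and 24 in neither.

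In the male comparison 4 of 214 MHC probes rose (1.87%) and 125 fell (58.4%). Among all autosomal probes 3.14% rose and 56.0% fell. Of 35 regions none rose and 19 fell (54.3%), where 0.594% of autosomal regions rose and 60.9% fell. The shares of MHC features that fell were thus near the background. The median log2 fold was -0.74 over MHC probes and -0.68 over autosomal probes. Of the 125 falls, 63 had dim Cy5 on an array, and with dim signals raised to the lowest signal above background 75 probes and 6 regions fell. With the TiO2-H sex labels crossed, 25 probes rose and 58 fell. Falls made up 96.9% of the calls, 72.7% after loess within arrays and at least 95.2% under the other scalings. Over autosomal probes they made up 94.7%, 74.4% and at least 90.2% in the same order.

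The 4 regions with the largest falls in the male comparison were without a symbol. Region 34740094 had levels of -0.28 in Sham male and -1.002 on the TiO2-H array labelled male over 6 probes. Its 3 measured probes gave a log2 fold of -2.06, but all 3 were dim on the exposed array and no fold is given. Region 35653618 had levels of 1.81 and 0.30 over its 6 probes, and its 4 measured probes gave a fall of at least 3.30-fold, with 1 of them dim. This region lies between the Prrc2a and Vars2 regions, where RefSeq lists many genes, among them Tnf, H2-D1, the H2-Q genes and Pou5f1. Which gene is nearest was not determined. Regions 34077065 and 35373372 had log2 folds of -1.56 and -1.55, and their dim probes leave no fold above 1. The log2 folds of regions 34740094, 34077065 and 35373372 were 0.04, 0.06 and 0.13 after normexp background correction.

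In the female comparison changes went both ways. Of 280 MHC probes 66 rose (23.6%) and 113 fell (40.4%), where 28.8% of autosomal probes rose and 36.3% fell. Of 49 regions 8 rose (16.3%) and 19 fell (38.8%), and the background was 17.1% and 32.7%. The median log2 fold was -0.36 over MHC probes and -0.10 over autosomal probes. Dim Cy5 on an array stood behind 96 of the 113 falls. With both Cy5 signals above background 17 probes and 0 regions fell, and 64 probes rose. With the TiO2-H sex labels crossed, 3 probes rose and 140 fell. Falls made up 63.1% of the calls, where they made up 55.8% over autosomal probes. Without centring the share was 87.2% (autosomal 83.3%), and after scaling the arrays to a common spread 94.9% (89.2%). It was 90.7% (82.6%) after quantile normalization, 93.3% (91.5%) after normexp and 91.5% (86.2%) after loess.

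**Figure D3:**
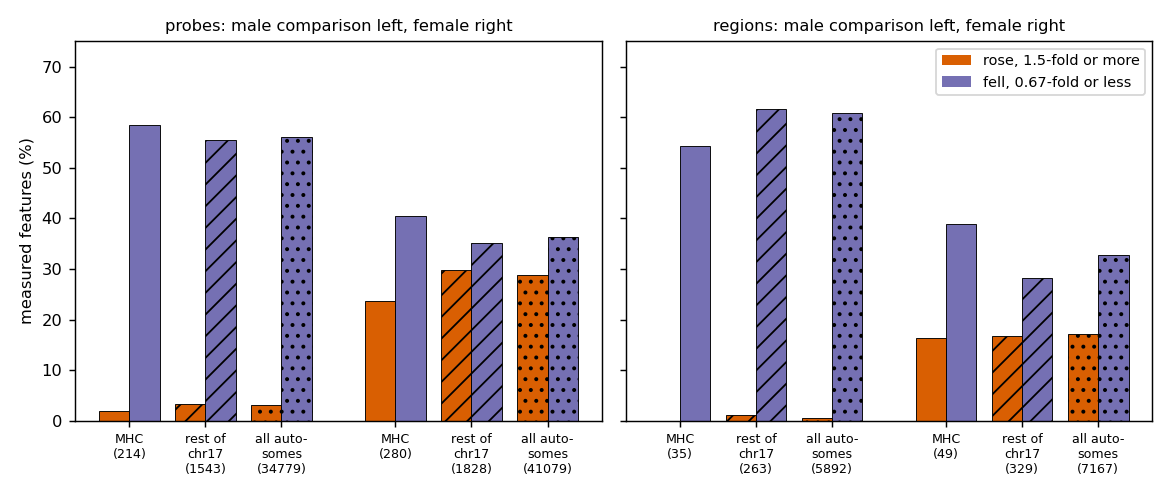
Share of measured probes (left panel) and regions (right panel) that rose at least 1.5-fold or fell to 0.67-fold or less, for the MHC, the rest of chromosome 17 and all autosomes, with the number measured in brackets. In the male comparison 58.4% of MHC probes and 56.0% of autosomal probes fell, and in the female comparison 40.4% and 36.3%.

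The largest rises in the female comparison were in region 35653618 (1.95-fold), region 34783897 (1.86-fold), Gm8909 (at least 1.75-fold) and Prrc2a (at least 1.70-fold). The level of region 35653618 was 0.61 in Sham female and 1.42 on the TiO2-H array labelled female, and that of region 34783897 was -0.31 and -0.01. Gm8909 (36304426 to 36305503, 6 probes) went from -0.18 to 0.52. The Prrc2a levels were nearly equal over all 4 probes, at 1.53 and 1.54, and the fold rests on the 3 probes that were measured. The direction of each rise was lost under some scaling, for region 35653618 and Gm8909 under normexp and loess, for region 34783897 under normexp and the common spread, and for Prrc2a under quantile normalization and the common spread.

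The largest falls in the female comparison were in region 35088871 (at least 1.43-fold), region 35301346 (at least 1.41-fold), region 35332472 and region 34740094 (at least 1.23-fold). All measured probes of these 4 regions were dim, on the TiO2-H array labelled female. For region 35332472, with a log2 fold of -1.63, the dim signals leave no fold. The gene order places region 35088871 between the Dxo/Stk19 and Hspa1l regions. RefSeq lists Dxo, Skiv2l, Nelfe, Cfb, C2, Zbtb12, Ehmt2, Slc44a4, Neu1, Hspa1b and Hspa1a there, and which of them is nearest was not determined.

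The same rule was also applied to arrays of equal exposure. Such pairs differ in labelled sex, slide and spread of levels as well, so they do not show differences between pools alone. Sham female over Sham male gave 17 of 51 MHC regions higher (33.3%) and 9 lower (17.6%), where 24.2% and 23.9% of autosomal regions were higher and lower. The array labelled TiO2-H female over that labelled male gave 13 of 17 MHC regions higher (76.5%) and 0 lower, where the background was 70.0% and 0.0%. The share of MHC regions past the threshold was 51.0% between the Sham pools and 55.1% in the female comparison, where 48.1% and 49.8% of autosomal regions were. In the male comparison it was 54.3%, against 61.5% of autosomal regions.

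Both comparisons measured 34 regions. Of these 6 fell in both (17.6%), where 14.4% of 5070 autosomal regions did, and 0 rose in both. A further 4 fell in the male and rose in the female comparison (11.8%), where 15.3% of the autosomal regions did, so both shares were near the background. In the male comparison alone 8 fell, 6 fell and 3 rose in the female comparison alone, and 7 passed no threshold. With the TiO2-H sex labels crossed, 34 regions were again measured in both, 6 fell in both and none went opposite ways. Of the 6 that fell in both as labelled, 5 did so when crossed, and the sixth (region 35118675) had only 2 measured probes in the crossed male comparison. Of the 4 opposite regions, 0 passed a threshold in the crossed female comparison and 1 fell in the crossed male comparison.

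**Figure D4:**
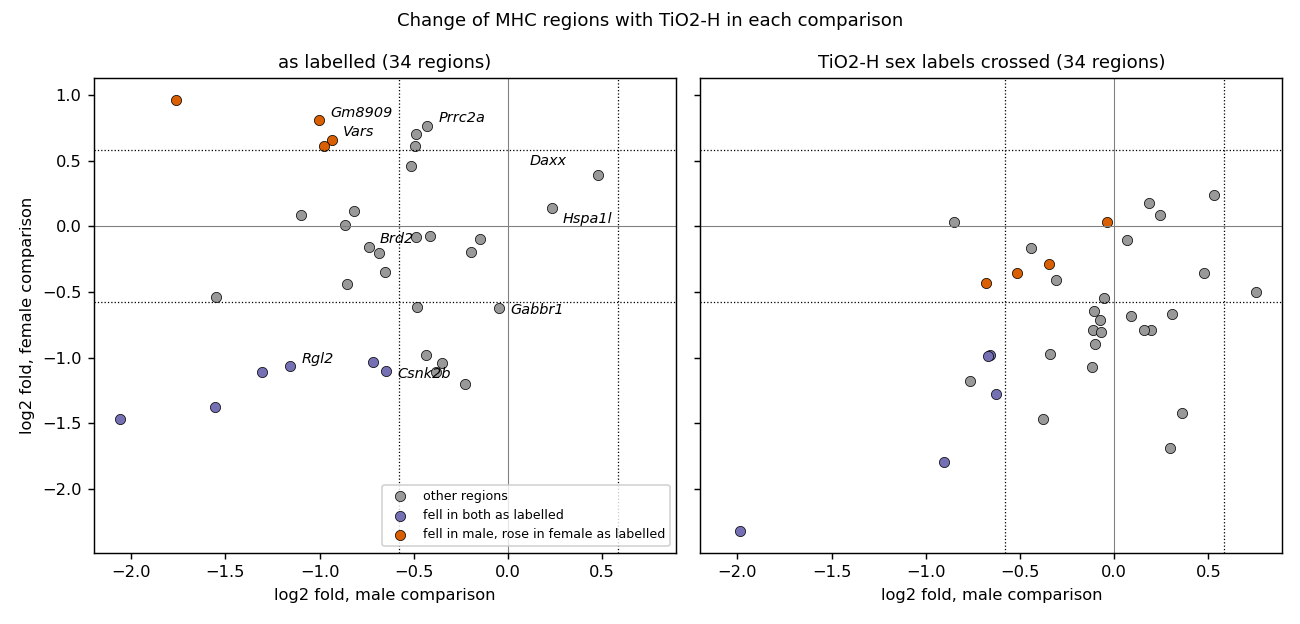
Log2 fold of TiO2-H over Sham in the male (horizontal) and female (vertical) comparison for the 34 MHC regions measured in both, as labelled (left) and with the TiO2-H sex labels crossed (right); dotted lines mark 1.5-fold and 0.67-fold. The 6 regions that fell in both are in purple, 5 of them again in the lower left when crossed, and the 4 opposite regions in orange lose their female rise when crossed.

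The regions that fell in both comparisons were Rgl2, Csnk2b and regions 34077065, 34740094, 34767732 and 35118675. Csnk2b encodes the regulatory subunit of protein kinase CK2. Its region (35257650 to 35258746, 10 probes) had levels of -0.50 in Sham male and -0.18 in Sham female, against -0.66 and -0.75 on the TiO2-H arrays labelled male and female. Both exposed arrays thus lay below both Sham arrays. The log2 fold was -0.65 in the male comparison, where 5 of 7 measured probes were dim. That direction was lost under normexp, and with dim signals raised the region rose past 1.5-fold instead. In the female comparison it fell at least 1.17-fold. Region 34767732 (8 probes) had levels of -0.37 and 0.43 on the Sham arrays and -1.10 and -0.98 on the exposed arrays, male first, and its male fall was at least 1.23-fold. In the female comparison its log2 fold was -1.11 with 6 of 8 probes dim, and no fold can be given. Region 35118675 had a male fall of at least 1.17-fold, and its female log2 fold of -1.04 rests on 4 dim probes of 5. Of these 6 regions Rgl2 alone kept a fall of more than 1.5-fold with dim signals raised, in the female comparison.

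Without regard to sex labels, both TiO2-H arrays lay below both Sham arrays in 16 of 74 MHC regions (21.6%) and above both in 10 (13.5%). Over 12666 autosomal regions the shares were 16.6% and 14.4%, and over the rest of chromosome 17 they were 15.3% and 12.3%. Among the 16 were Rgl2, Mir219a-1, Brd2 and Csnk2b, and among the 10 was Daxx. This order uses every probe of a region, dim or not.

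The Rgl2 region (34066027 to 34067579, 13 probes) was annotated inside the gene, which encodes an exchange factor for Ral GTPases. Its level was 0.25 in Sham male and 0.50 in Sham female, against -0.73 on the TiO2-H array labelled male and -0.005 on the TiO2-H array labelled female. Both exposed arrays lay below both Sham arrays. Its fall was at least 1.43-fold between the arrays labelled male (9 measured probes, 6 dim) and at least 1.90-fold between those labelled female (10 measured, 5 dim). With the sex labels crossed its log2 folds were -0.90 and -1.80, and over probes with Cy5 above background on both arrays of a pair they were -0.52 and -0.40 and passed no threshold. The male fall also did not pass after normexp (-0.12) or loess (-0.27). The fall lay toward the ends of the region. The probe at 34066027 read -1.09 and 0.74 on the Sham arrays and -1.73 and -2.58 on the exposed arrays, male first. The probe at 34066367 in between read 1.63, 0.92, 1.12 and 1.30 and kept Cy5 above background on all 4 arrays.

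A fit of both exposed arrays against both Sham arrays asked which probes differed beyond the spread between arrays of one exposure. It used limma over 39861 autosomal probes with Benjamini-Hochberg adjustment, and 258 MHC probes were tested. Tested probes had Cy5 well above background on at least 2 arrays, and Cy5 was above background more often on the Sham arrays. The direction of a call therefore cannot be read apart from this filter. The fit called 1 MHC probe at an adjusted p under 0.05, where 0.0928% of all tested probes were called, every one of them lower in TiO2-H. The probe lies in the Rgl2 region at 34067414 to 34067462. It read 2.33 in Sham male, 2.53 in Sham female, -2.83 on the TiO2-H array labelled male and -1.63 on the TiO2-H array labelled female. The limma difference was -4.66 ± 0.57 (log2, SE) with an adjusted p of 0.00473. Its Cy5 was not well above background on either exposed array, so it was at least 11.4-fold lower there with dim signals raised. Without centring and after normexp background correction no MHC probe was called. Without the filter on Cy5, 5 of 80478 probes were called, all lower in TiO2-H, and 1 of 497 MHC probes was among them. The neighbouring probe at 34067535 read 0.25 and 1.78 on the Sham arrays and -1.43 and -0.65 on the exposed arrays.

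**Figure D5:**
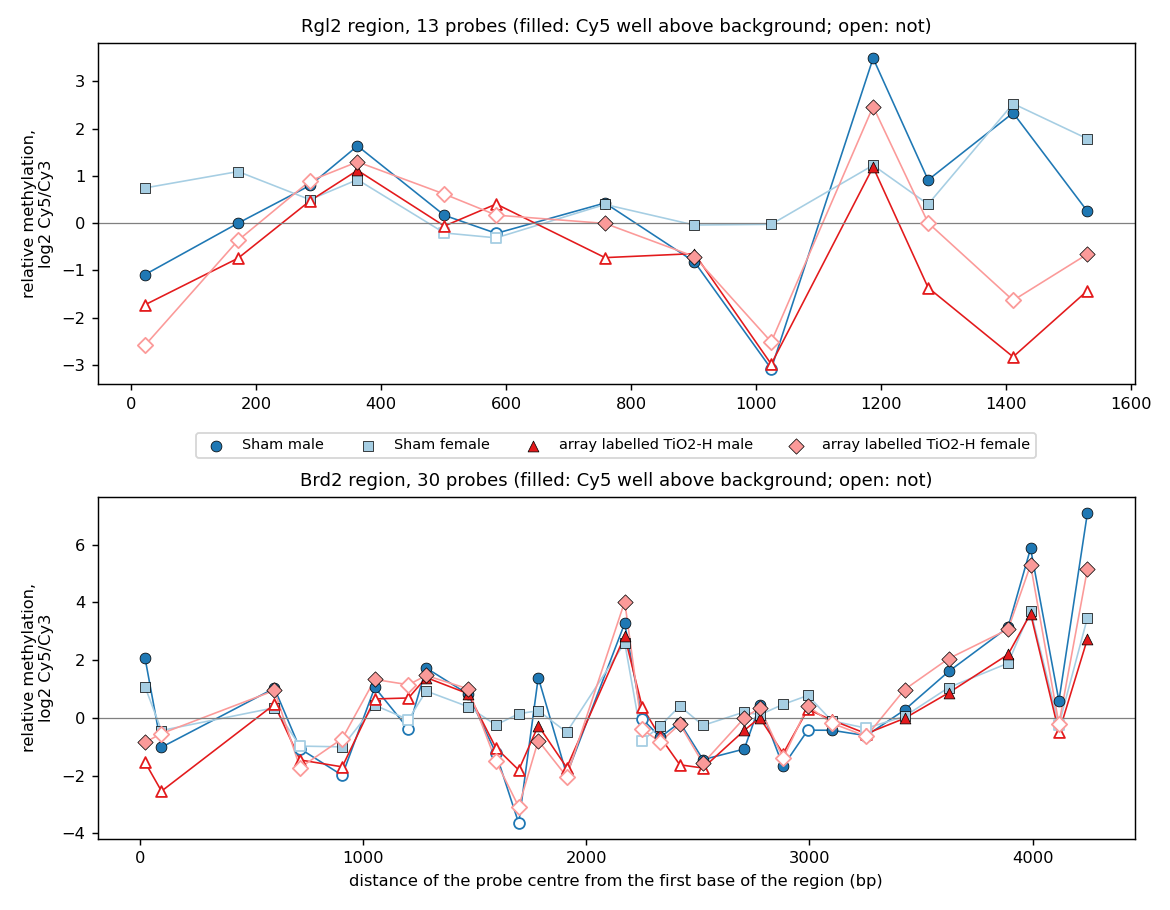
Level (log2 Cy5 over Cy3) of each probe of the Rgl2 region (top) and the Brd2 region (bottom) against its distance in bp from the first base of the region, with 1 line per array; filled points have Cy5 well above background and open points do not. In Rgl2 the exposed arrays drop below the Sham arrays at both ends, down to -2.83 at the called probe, and in Brd2 the last probe stands above 2 on all 4 arrays.

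Before adjustment 26 of the 258 MHC probes had a limma p under 0.05, against 2172 of all 39861 tested (5.45%), and all 26 were lower in TiO2-H. Over all 258, 171 were lower and 87 higher, and the median difference was -0.18, against -0.13 over all tested probes. How many of the 2172 were lower was not counted, so the direction of the 26 has no background. Without the filter on Cy5, 24 of 497 MHC probes were lower at a limma p under 0.05 and 3 higher. All probes under that p then numbered 2966 of 80478, and the median difference was -0.06 in the MHC and -0.04 over all probes. Of the 26 probes 11 (42.3%) were the first or last of their region, which held for 79 of the 258 (30.6%). The next smallest p after Rgl2 belonged to the first probe of the Mir219a-1 region (34161250), which carries a promoter annotation for a microRNA known for oligodendrocyte differentiation. It read 0.77 and 0.30 on the Sham arrays and -2.17 and -2.54 on the exposed arrays, with a limma difference of -2.89 ± 0.53 and an adjusted p of 0.0652. The first probe of Brd2 (34255264) read 2.08, 1.08, -1.54 and -0.85, with a difference of -2.77 ± 0.57 and an adjusted p of 0.0954. The fit was also run on simulated data with independent noise, no dim signals and equal spread on all arrays. It recovered 0 of 200 probes planted at a log2 change of 1 or 2 and 123 at 3. Changes of 1 or 2 may thus be missed with 4 arrays, but no detection limit for these data follows.

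Few immune genes had a region with a symbol, where 23 of the 88 MHC regions had one. Of the class I and related genes, 2 regions had a symbol. Gm8909 had levels of 0.69, -0.18, 0.40 and 0.52 in Sham male and Sham female, then in TiO2-H labelled male and labelled female. Its male fall of at least 2.01-fold rests on 4 of the 6 probes and did not pass the threshold after normexp (log2 fold -0.38) or loess (-0.19). In the female comparison it rose, and with the labels crossed it passed neither threshold. The region of 2410017I17Rik (36282108 to 36282756, 4 probes) had levels of -0.90, -1.07, -0.40 and -0.73, so both exposed arrays lay above both Sham arrays, but fewer than 3 probes were measured in either comparison. Gm8909 and 2410017I17Rik are close relatives of other class I genes, and probes there may also bind those copies. Among class II genes H2-Ab1, the beta chain of the I-A molecule, had 1 region (34401756 to 34402066, 3 probes) with levels of -1.15, -0.26, -0.79 and -1.17, and only 2 probes measured. No region with a symbol belonged to an antigen processing, complement or cytokine gene, nor to Pou5f1 or Zfp57. Regions without a symbol may belong to such genes, so how well the array covers them was not determined.

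In the chromatin and transcription list 3 regions had a symbol. Brd2 had a male fall of at least 1.26-fold and a female log2 fold of -0.16. The male fall did not pass with a common spread (-0.48), after quantile normalization (-0.49), normexp (-0.21) or loess (-0.37), nor with the labels crossed (-0.08), where Brd2 fell in the female comparison instead (-0.71). Daxx had log2 folds of 0.48 and 0.40, and the female value was -0.22 after quantile normalization, -0.56 with a common spread and -0.11 without centring. The male value of Daxx passed the threshold with a common spread (0.59) and after quantile normalization (0.64). Ppp1r10, a subunit of protein phosphatase 1, was measured in the female comparison alone at -0.30. Of the list, 1 of 2 measured regions fell in the male comparison and 0 of 3 in the female comparison. Over all autosomal regions 60.9% fell in the male comparison and 32.7% in the female comparison. In the nervous system list Csnk2b and Gabbr1 had a symbol, and 1 of 2 fell in the male comparison and 2 of 2 in the female one. With so few regions, named in part by their male ratio, nothing is read about either list. Gabbr1 encodes a subunit of the GABA B receptor. Its region (37187615 to 37188196, 5 probes) had levels of -0.69, 0.06, -0.58 and -0.02, and the groups overlapped. The male log2 fold was -0.05, with the sign turned without centring, after normexp and after loess. The female one was -0.62, with all 4 measured probes dim and the direction lost with dim signals raised. The heat shock gene Hspa1l had log2 folds of 0.23 and 0.14 and passed no threshold as labelled, but rose 1.69-fold in the crossed male comparison. Its female value was -0.11 after loess, -0.37 after quantile normalization, -0.66 with a common spread, -0.36 without centring and -0.50 crossed.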

How the data were processed

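Pooled DNA was hybridised to a 2-colour mouse CpG island array (mm9). Signals were extracted by the authors in Agilent Feature Extraction 10.7.3.1, per the file headers. The processed signals they deposited for both dyes are background-subtracted, detrended linear intensity values, and the deposited median spot signals are raw intensity values. The ratio column deposited with them is log10 of Cy5 over Cy3, with the deposited p-value of a single spot; the series value table holds the same log10 ratios. Levels were log2 ratios centred on the autosomal median of each array. Probes needed Cy3 well above background on 4 arrays. Where Cy5 was dim, it was raised to the lowest signal above background of that array, and the fold is a bound (at least N-fold). The bound holds for these processed signals and this floor only, and the male fold of Rgl2 was smaller under normexp. Tools were limma 3.58.1 (R 4.3.3) and pandas 2.3.3 (Python 3.11.15). The limma step and the counting were tested on simulated data.

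The members, gene lists and segments were chosen with earlier results of these data known. Named regions were the 6 highest and 6 lowest in mean level, the 4 largest rises and 4 largest falls in each comparison, those that changed the same way in both, those of the immune lists with Pou5f1, Gabbr1, Zfp57, Daxx, Brd2 and Csnk2b, and those with a limma call; further regions were named after their values were seen. Symbols of 31 probes came from the study's probe list, 28 of them through the RefSeq accession and 3 as listed. Gene order and promoter windows are from RefSeq (GRCm38.p6), and no coordinate was carried between builds. The array positions were not set against a genome here. Alternatives covered centring, spread, quantile, normexp (offset 50), loess, the filters, the gap in a region (500 bp), the slide as a block and each array left out.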

Additional observations from a re-analysis of the deposited data

Results flagged for a closer look

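In 4 MHC regions the single TiO2-H array of each labelled sex moved opposite ways against its Sham array, past the threshold both times. That is 11.8% of the 34 regions measured in both comparisons, where 15.3% of autosomal regions did so. With 1 array per group the difference between the comparisons was not tested. Gm8909 had a log2 fold of -1.004 in the male comparison and 0.81 in the female comparison. Region 35653618 had -1.76 and 0.96 in the same order. Vars, the gene of valyl-tRNA synthetase (35137702 to 35138478), had -0.94 and 0.66, and region 37183039 had -0.97 and 0.62; both were named after their values were seen. The levels of Vars were 0.73 in Sham male, -0.30 in Sham female, 0.36 on the TiO2-H array labelled male and 0.61 on the TiO2-H array labelled female. The direction of the male fall of Vars was lost with its dim probe raised. With the TiO2-H sex labels crossed, the log2 folds were -0.51 and -0.36 for Gm8909, -0.68 and -0.43 for region 35653618, -0.04 and 0.04 for Vars, and -0.34 and -0.28 for region 37183039.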

How the results depend on the processing

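No paired analysis was possible because of 1 array per group, as far as replicate numbers go. The slide pairs a Sham with a TiO2-H array, and with it as a block limma called 70 probes, against 37 without, and 1 MHC probe in either fit. The mean MHC difference from the rest of chromosome 17 kept its sign throughout, from -0.113 to -0.009, and from -0.08 to -0.013 with 1 array left out. Its change with TiO2-H was 0.089 after loess and from -0.122 to 0.077 with 1 array left out. limma called 0 MHC probes without centring and after normexp, 8 with a common spread, 7 after quantile normalization 10 without the Sham male array, 5 without Sham female, 2 without TiO2-H labelled male and 4 without TiO2-H labelled female; with 1 array in an arm its spread is assumed equal to that of the other.

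In the male comparison rising probes numbered 0 after normexp, 15 after loess, 43 with dim Cy5 raised and 25 with the labels crossed. Falling probes numbered 49, 40, 75 and 58 in that order and 62 with both Cy5 above background. Rising regions numbered 1 with a common spread, quantile normalization, dim Cy5 raised and crossed labels. Falling regions numbered 3 after normexp or loess, 5 with both Cy5 above background, 6 with dim Cy5 raised, 8 crossed and 7 with at least 5 measured probes.

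In the female comparison rising probes numbered 24 with no centring, 11 after quantile normalization, 7 with a common spread, 10 after normexp or loess, 100 with dim Cy5 raised and 3 crossed. Rising regions numbered 0 after normexp and loess, with a common spread, without centring, crossed and with at least 5 probes, 1 after quantile normalization, 16 with dim Cy5 raised and 5 with no p-value filter. Falling probes numbered 17 with both Cy5 above background and 43 with dim Cy5 raised. Falling regions numbered 31 without centring, 29 crossed, 8 with at least 5 probes, 1 with dim Cy5 raised and 0 with both above background.

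Of 337 folds of named regions under the alternatives, 49 changed sign. Of these 23 had passed the threshold and 26 had not. In the male comparison the 23 log2 folds were, after normexp, 0.058 in region 34077065, 0.036 in region 34740094, 0.102 in Csnk2b and 0.125 in region 35373372, and with dim Cy5 raised 0.182 in region 34740094, 0.778 in Csnk2b and 0.245 in region 35373372. In the female comparison region 34783897 was at -0.066 with a common spread, -0.435 after normexp and -0.167 crossed. Region 35653618 was at -0.405 after normexp, -0.214 after loess and -0.433 crossed, and Gm8909 at -0.879, -0.582 and -0.358. Prrc2a was at -0.772 with a common spread and -0.195 after quantile normalization. With dim Cy5 raised region 34767732 was at 0.280, region 35118675 at 0.151, region 35271987 at 0.216, region 35332472 at 0.432 and Gabbr1 at 0.185. For the alternatives other than raised dim signals and crossed labels, the cause was not tested.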
